A study of Mus musculus with 9 samples.

Results

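The Hox genes are the homeobox genes of the clusters HoxA, HoxB, HoxC and HoxD. Those described here are the genes whose symbol is Hox, a cluster letter from a to d and a paralogue number. The rule gave 39 of the 54361 genes in the table, and 16 of them had a mean value of at least 5 over the 9 libraries and so were among the 13642 genes tested. RNA was sequenced from pools of 3 to 4 C57BL/6 mice per library, sorted from lung and labelled as eosinophils, the granulocytes of allergic and parasitic disease. The Siglec-F high group (n = 3) and the Siglec-F int group (n = 3) came from mice that had received PyMT cells through the tail vein, and were divided by the amount of Siglec-F, a surface lectin of mouse eosinophils. PyMT cells are tumour cells of a mouse mammary carcinoma model driven by the polyomavirus middle T antigen. The naive group (n = 3) came from mice that had received saline alone. The labels name no allele or transgene in the mice, and age, sex and the day of collection are not given in the sources used here.

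Hox proteins are transcription factors that tell cells where along the body axis they lie. Within each cluster the genes stand in the order in which they are switched on from head to tail, so that low paralogue numbers mark the neck and upper trunk, and high numbers mark the lower trunk, the limbs and the genital tract. Fibroblasts and other mesenchymal cells keep the Hox set of their place of origin into adult life, and the lung mesenchyme is known for Hoxa5 and its neighbours. In blood, genes of the A cluster act in stem and progenitor cells and are turned down as the cells mature. Below, paralogue groups 1 to 3 are called anterior, 4 to 8 central and 9 to 13 posterior.

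Values are the deposited normalized counts. A fold change is the difference of mean log2(value + 1), given with its standard error (SE) and limma's Benjamini-Hochberg adjusted p over all 13642 genes. That scale understates changes of low genes. A gene is called where that p is below 0.05, and the p-values measure the spread between pools of mice. The libraries held between 2205949 and 12495639 reads, and 3 reads were worth a value of 0.949 in Siglec-F int library 3 and 7.82 in naive library 2. Siglec-F high library 1 stood apart from its group: across genes its log2 values gave Pearson's r of 0.705 and 0.764 with its group mates, against 0.842 or more for every other pair within a group. Some markers of the labelled cell type were low or absent. Siglecf itself had 17.6, 3.58 and 14.5 in the Siglec-F high libraries, 6.98, 20.2 and 11.1 in the Siglec-F int libraries and 12.6, 31.3 and 4.18 in the naive libraries. Ccr3, the eotaxin receptor, had no read in the naive libraries, and Epx, the eosinophil peroxidase, had reads in 1 naive library. The 10 eosinophil markers, most of them not named here, summed to between 515 and 1143 in the Siglec-F high libraries, 194 and 419 in the Siglec-F int libraries and 268 and 742 in the naive libraries. Siglecf gave a small part of these sums. Markers of some other cell types lay apart between the naive libraries and the rest. The 10 pigment cell markers summed to between 209 and 1056 in the Siglec-F high libraries, 369 and 700 in the Siglec-F int libraries and 64410 and 72656 in the naive libraries. The 12 markers of fibroblasts and mesenchyme summed to between 23390 and 33856 in the Siglec-F high libraries, 9648 and 24618 in the Siglec-F int libraries and 5692 and 7332 in the naive libraries. The 8 macrophage and monocyte markers summed to between 2744 and 3263 in the Siglec-F high libraries, 2827 and 10347 in the Siglec-F int libraries and 1054 and 1685 in the naive libraries.

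The 4 clusters lie on chromosome 6 (HoxA), chromosome 11 (HoxB), chromosome 15 (HoxC) and chromosome 2 (HoxD) of GRCm38. The Hox genes of the A cluster span chr6:52155590-52260880, those of the B cluster chr11:96194316-96368256, those of the C cluster chr15:102921103-103036852 and those of the D cluster chr2:74668310-74765142, by GENCODE M21. RefSeq promoter windows on GRCm38.p6, from 250 bases before to 50 after a transcription start, were at hand for 22 of the Hox genes (24 windows). Those printed belong to the genes the results turn on: Hoxa5 and Hoxa7, central genes with reads in all 9 libraries, and Hoxa10 (both of its starts), Hoxa11 and Hoxd13, which were at or near 0 in those of tumour-bearing mice. Hoxb5 and Hoxb9 had no window. The windows lie at chr6:52204538-52204837 (Hoxa5), chr6:52218524-52218823 (Hoxa7), chr6:52240805-52241104 and chr6:52234890-52235189 (Hoxa10, upstream and downstream start) and chr6:52245761-52246060 (Hoxa11), all on the minus strand, and at chr2:74667975-74668274 (Hoxd13) on the plus strand. Each is printed 5′ to 3′ on the gene's strand, and capitals mark the letters of 6 motifs on either strand.
Hoxa5: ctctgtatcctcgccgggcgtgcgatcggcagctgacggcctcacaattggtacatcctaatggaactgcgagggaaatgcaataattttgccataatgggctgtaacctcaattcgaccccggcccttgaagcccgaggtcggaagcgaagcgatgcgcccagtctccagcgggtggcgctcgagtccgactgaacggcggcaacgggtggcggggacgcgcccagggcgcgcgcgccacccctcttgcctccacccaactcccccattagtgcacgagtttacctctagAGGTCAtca
Hoxa7: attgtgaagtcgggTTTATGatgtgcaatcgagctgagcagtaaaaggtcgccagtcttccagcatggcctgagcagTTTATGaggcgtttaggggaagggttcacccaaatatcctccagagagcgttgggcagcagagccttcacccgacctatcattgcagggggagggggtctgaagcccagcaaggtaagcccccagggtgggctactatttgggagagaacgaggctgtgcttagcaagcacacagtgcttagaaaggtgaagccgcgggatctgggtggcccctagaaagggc
Hoxa10 upstream start: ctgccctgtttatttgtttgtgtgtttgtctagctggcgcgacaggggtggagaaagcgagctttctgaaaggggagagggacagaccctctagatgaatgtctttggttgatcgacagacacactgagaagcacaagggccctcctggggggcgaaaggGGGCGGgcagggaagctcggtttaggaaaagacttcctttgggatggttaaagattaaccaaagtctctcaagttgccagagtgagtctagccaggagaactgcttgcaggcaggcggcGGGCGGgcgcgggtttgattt
Hoxa10 downstream start: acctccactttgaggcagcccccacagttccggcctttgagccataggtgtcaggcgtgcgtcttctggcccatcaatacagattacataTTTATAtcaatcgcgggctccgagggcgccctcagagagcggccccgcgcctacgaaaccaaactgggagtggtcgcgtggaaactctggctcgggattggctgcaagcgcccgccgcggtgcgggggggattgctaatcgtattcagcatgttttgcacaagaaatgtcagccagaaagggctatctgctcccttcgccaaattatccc
Hoxa11: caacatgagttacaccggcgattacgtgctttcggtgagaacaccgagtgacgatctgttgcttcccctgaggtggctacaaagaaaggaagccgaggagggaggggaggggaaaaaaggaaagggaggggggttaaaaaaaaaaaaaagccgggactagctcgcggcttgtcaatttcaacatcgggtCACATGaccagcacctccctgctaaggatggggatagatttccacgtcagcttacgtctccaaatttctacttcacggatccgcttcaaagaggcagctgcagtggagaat
Hoxd13: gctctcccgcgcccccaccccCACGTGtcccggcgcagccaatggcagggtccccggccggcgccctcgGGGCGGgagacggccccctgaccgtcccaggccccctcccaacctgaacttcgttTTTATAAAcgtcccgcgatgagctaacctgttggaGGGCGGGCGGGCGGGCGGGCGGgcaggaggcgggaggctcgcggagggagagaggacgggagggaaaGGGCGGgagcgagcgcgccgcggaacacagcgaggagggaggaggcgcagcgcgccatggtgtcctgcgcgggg

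The capitals mark the TATA box (TATAAA), the GC box (GGGCGG), the E-box (CACGTG), the core of the M-box (CATGTG), the half-site of the retinoic acid receptor (AGGTCA) and a caudal-type site (TTTATG). Hoxa5 held 1 retinoic acid receptor half-site, Hoxa7 held 2 caudal-type sites, and Hoxa11 held 1 M-box core. The upstream Hoxa10 window held 2 GC boxes and the downstream one 1 TATA box. The Hoxd13 window held 7 GC boxes, some of which run into each other, 1 E-box, and the TATA letters on both strands at 1 overlapping place. Its GC content was 74.3% with 37 CpG dinucleotides, against medians of 52.7% and 7 over the 32851 windows of all genes. Over the 24 Hox windows, the TATA box stood in 16.7% (13.6% of all windows), the GC box in 41.7% (35.7%), the E-box in 20.8% (7.15%), the M-box core in 20.8% (14.2%), the retinoic acid receptor half-site in 29.2% (16.3%) and the caudal-type site in 20.8% (11.9%). A match is a stretch of letters and not a measured binding site.

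Hoxb9, Hoxa10, Hoxa11 and Hoxd13, 4 of the 16 posterior Hox genes, were at or near 0 in the Siglec-F high and Siglec-F int libraries and had reads in every naive library, while the summed Hox reads of the groups overlapped. All Hox reads together came to 118, 116 and 100.4 CPM (counts scaled to the total of the library) in the Siglec-F high libraries, 101, 42.4 and 117 in the Siglec-F int libraries and 110, 87.9 and 102 in the naive libraries. Siglec-F int library 2 was the lowest. Genes of groups 9 to 13 gave 11.6%, 1.45% and 1.74% of the Hox reads in the Siglec-F high libraries and 1.05%, 5.91% and 1.30% in the Siglec-F int libraries, against 38.0%, 30.9% and 37.2% in the naive libraries. The lowest naive library had a 95% Wilson interval of 24.8% to 37.7% and the highest of the others, Siglec-F high library 1, one of 9.29% to 14.5%. These intervals, like the floors and read ratios below, cover counting error only. Most posterior reads in library 1 of Siglec-F high and library 2 of Siglec-F int came from a single gene, Hoxd11. Without Hoxd11 the shares were 1.90%, 1.45% and 1.74% in the Siglec-F high libraries, 0.923%, 1.49% and 1.17% in the Siglec-F int libraries, and 38.0%, 30.9% and 37.2% in the naive libraries. Within the A cluster alone, which needs no comparison of clusters, the posterior genes gave 0%, 1.85% and 2.04% of the reads in the Siglec-F high libraries, 1.03%, 2.19% and 0.102% in the Siglec-F int libraries and 37.9%, 37.5% and 43.0% in the naive libraries. The count of 0 in Siglec-F high library 1 has an upper Wilson bound of 0.811%. Most posterior reads of the naive libraries also came from a single gene, Hoxa10. It gave 107 of 187, 32 of 60 and 154 of 209 posterior reads over all clusters. Within the A cluster it gave 107 of 118, 32 of 45 and 154 of 189.

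**Figure D1:**
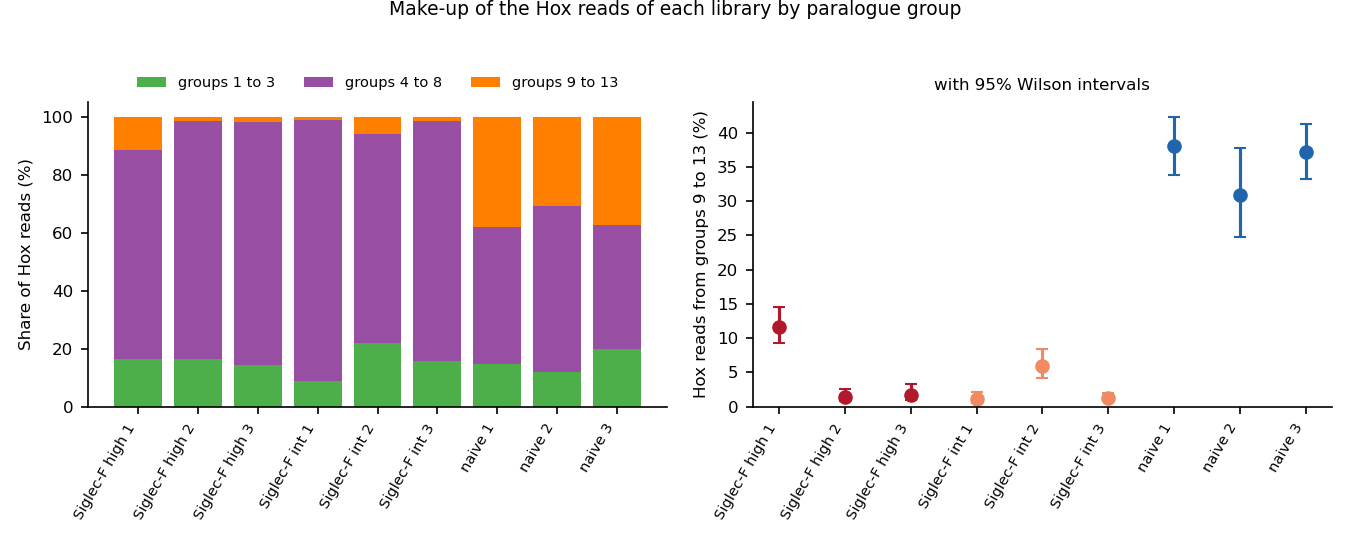
The left panel stacks, for each library, the share of Hox reads (%) from paralogue groups 1 to 3, 4 to 8 and 9 to 13, and the right panel plots the share from groups 9 to 13 as points with 95% Wilson intervals. The naive libraries lie between 30.9% and 38.0%, and the Siglec-F high and int libraries at 11.6% or below.

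Between the Siglec-F high and naive libraries 5 of the 16 tested Hox genes were called, all of them lower (Hoxa10, Hoxa11, Hoxd13, Hoxb9 and Hoxb5). Over all genes tested 31.3% were called in this comparison, 16.6% as lower and 14.7% as higher. Between the Siglec-F int and naive libraries 4 of the 16 were called, all lower (Hoxa10, Hoxa11, Hoxb9 and Hoxd13), against 22.3% of all genes, 10.3% as lower and 12.0% as higher. Both comparisons use the same 3 naive libraries. The posterior genes accounted for 4 of the calls in each comparison, out of 5 posterior genes tested. None of the 5 tested anterior genes was called in either, and of the 6 tested central genes 1 was called between Siglec-F high and naive and 0 between Siglec-F int and naive. Hoxb9, Hoxa10, Hoxa11 and Hoxd13 averaged under 5 in both groups of tumour-bearing mice and passed the filter through the naive group, so a gene of that kind could enter the test only by differing. Hoxd11 averaged 21.2 in Siglec-F high, 3.48 in Siglec-F int and 0 in naive, and passed through Siglec-F high. The count of 4 of 5 posterior genes therefore carries no weight as a contrast with the anterior and central genes. With no filter on low values 31 Hox genes were tested and 4 were called, all lower, in each comparison. Of all 26995 genes tested in that way, 3089 were called for Siglec-F high (1578 lower) and 2228 for Siglec-F int (1016 lower). edgeR on the recovered reads called 3 of the 16 lower in the Siglec-F high libraries (10.1% of all genes) and 3 in the Siglec-F int libraries (7.61%), and DESeq2 called 4 (16.7%) and 4 (13.3%). In 6 of the 16 genes every Siglec-F high library lay below every naive library (26.3% of all genes), and in 1, Hoxa5, every one lay above (20.2%). For Siglec-F int the counts were 4 below (27.6%) and 1 above, Hoxd11 (23.3%). The median log2 fold change of the 16 was -0.99 between Siglec-F high and naive, against -0.11 for all genes, and -0.20 between Siglec-F int and naive, against -0.02. The counts and medians of the 16 include Hoxb9, Hoxa10, Hoxa11 and Hoxd13, which passed the filter through naive. Those counts and medians therefore carry no weight as a contrast with all genes. In bulk RNA, fewer cells that express a gene and less of its RNA per cell cannot be told apart.

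**Figure D2:**
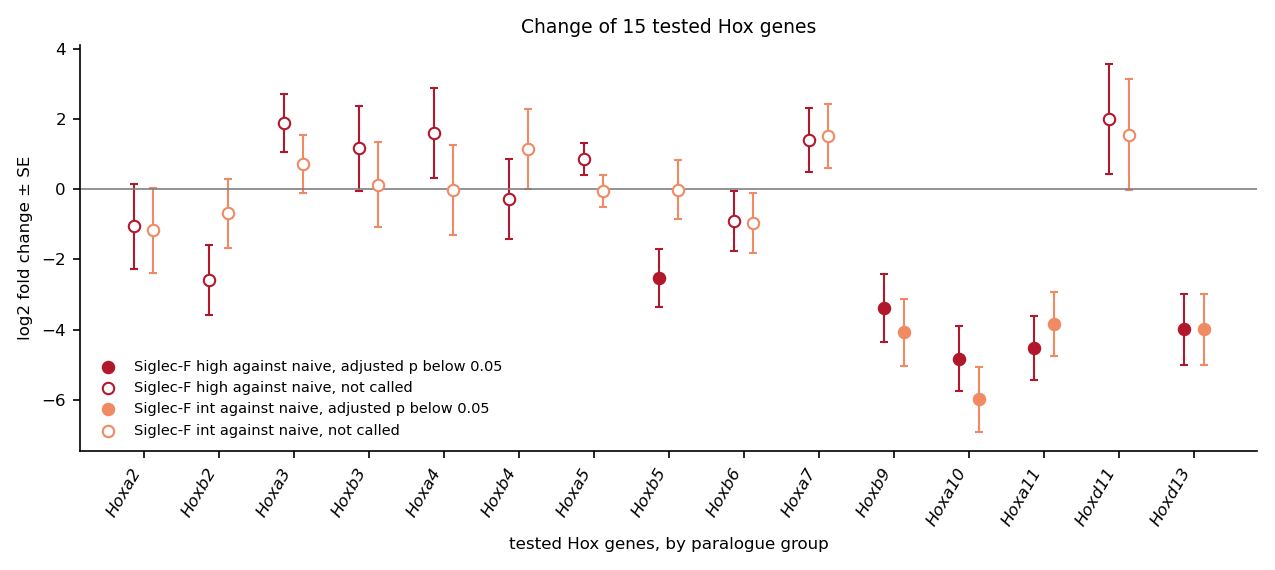
Log2 fold changes on the log2(value + 1) scale ± SE of 15 of the tested Hox genes, in the order of their paralogue group, for Siglec-F high against naive (red) and Siglec-F int against naive (orange), where filled points have an adjusted p below 0.05 and all tests rest on n = 3 libraries per group. Hoxb9, Hoxa10, Hoxa11 and Hoxd13 sit at -3.38 or below in both, and Hoxb5 at -2.53 in the Siglec-F high comparison.

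Hoxa10, which in the mouse patterns the lumbar spine and the uterus and also acts in blood progenitors, was the posterior gene with the most reads. Its values were 0, 6.56 and 6.82 in the Siglec-F high libraries, 0, 2.95 and 0.32 in the Siglec-F int libraries and 123, 83.4 and 129 in the naive libraries. Every naive library was above every other library by a wide margin. The fold change was -4.83 ± 0.94 between Siglec-F high and naive (adjusted p = 0.00482) and -6.00 ± 0.94 between Siglec-F int and naive (adjusted p = 0.00218). In pooled reads, scaled by the size factors, the Siglec-F high level was 0.0423 of the naive one (95% interval 0.0251 to 0.0673) and the Siglec-F int level 0.00905 (0.00387 to 0.0181). Both calls held under every alternative tried, with adjusted p of 0.0222 or below. Its neighbour Hoxa9, a regulator of blood progenitors that lies just beside it in the cluster, was not tested: it had 1 read in the Siglec-F high libraries, 0 in the Siglec-F int libraries and 5 in the naive libraries, not scaled to depth.

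Hoxa11, needed for the forearm bones and the uterus, was at 0 in all 3 Siglec-F high libraries. In the Siglec-F int libraries it had 3.22, 0 and 0, and in the naive libraries 12.6, 33.9 and 25.1. Only Siglec-F int library 1 among the 6 tumour-bearing libraries had reads of the gene, 6 in number, and no library of those groups reached the lowest naive library. The fold change was -4.53 ± 0.90 for Siglec-F high (adjusted p = 0.00556) and -3.84 ± 0.90 for Siglec-F int (adjusted p = 0.0137). Against a floor of 3 reads over the group, Siglec-F high was at least 27.6-fold lower than naive, and the Siglec-F int read ratio was 0.0368 (0.0130 to 0.0855). The Siglec-F int call was lost with edgeR (adjusted p = 0.0906) and without Siglec-F int library 3 (0.0658). Hoxa11os, a transcript of the opposite strand with values of 9.17, 31.3 and 25.1 in the naive libraries, shares 35.0% of the exon bases of Hoxa11. Reads in that shared part cannot be told apart without the strand of counting.

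Hoxd13, the last gene of the D cluster and a gene of the digits and genital tubercle, had no read in any Siglec-F high or Siglec-F int library. In the naive libraries its values were 58.5, 5.21 and 10.0, so that 1 naive library held most of the signal. The fold change was -4.00 ± 1.01 in both comparisons, with adjusted p = 0.0147 for Siglec-F high and 0.0181 for Siglec-F int. Against the floor of 3 reads the levels were at least 33.2-fold lower in Siglec-F high and at least 65.3-fold lower in Siglec-F int. Without naive library 1 the Siglec-F high call was lost (adjusted p = 0.0543), and the Siglec-F int call was lost without naive library 1 (0.0670), Siglec-F int library 1 (0.0610) or Siglec-F int library 3 (0.0655). Its paralogues Hoxa13 and Hoxb13 had no reads in the 9 libraries, and Hoxc13 had 14 reads, all in Siglec-F int library 3.

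Hoxb9, a gene of the thoracic skeleton and mammary gland, had 3.29, 0 and 0 in the Siglec-F high libraries, 0 in each Siglec-F int library and 17.2, 33.9 and 6.68 in the naive libraries. The groups did not overlap in either comparison. Its fold change was -3.38 ± 0.97 for Siglec-F high (adjusted p = 0.0245) and -4.08 ± 0.97 for Siglec-F int (adjusted p = 0.0140). The Siglec-F high libraries held 3 reads, a ratio to naive of 0.0544 (0.0107 to 0.172), and Siglec-F int was at least 36.2-fold lower than naive. The Siglec-F high call was lost with edgeR (adjusted p = 0.0980), DESeq2 (0.0622), quantile normalization (0.0549), a fit of only those groups (0.0596), and without Siglec-F high library 2 (0.0507) or 3 (0.0684) or naive library 1 (0.0642) or 2 (0.0599). The Siglec-F int call was lost without Siglec-F int library 1 (0.0502) or 3 (0.0546).

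Hoxd11, which acts with Hoxa11 in the forearm and kidney, was the tested posterior gene that went the other way in its values. It had 63.6, 0 and 0 in the Siglec-F high libraries, 0.54, 9.27 and 0.63 in the Siglec-F int libraries and 0 in each naive library. The Siglec-F high level was that of library 1, the library that stood apart. Its fold change of 2.0 ± 1.57 for Siglec-F high (adjusted p = 0.338) and 1.56 ± 1.57 for Siglec-F int (adjusted p = 0.502) did not pass the test, and without Siglec-F high library 1 the Siglec-F high fold change was 0. Some untested posterior genes had reads only outside naive. In Siglec-F high, Siglec-F int and naive these were Hoxc9 (1, 1 and 0 reads), Hoxc10 (6, 2 and 0) and Hoxc13 (0, 14 and 0). Hoxa9 (1, 0 and 5) and Hoxd9 (1, 0 and 3) had more in naive. These counts are not scaled to depth.

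**Figure D3:**
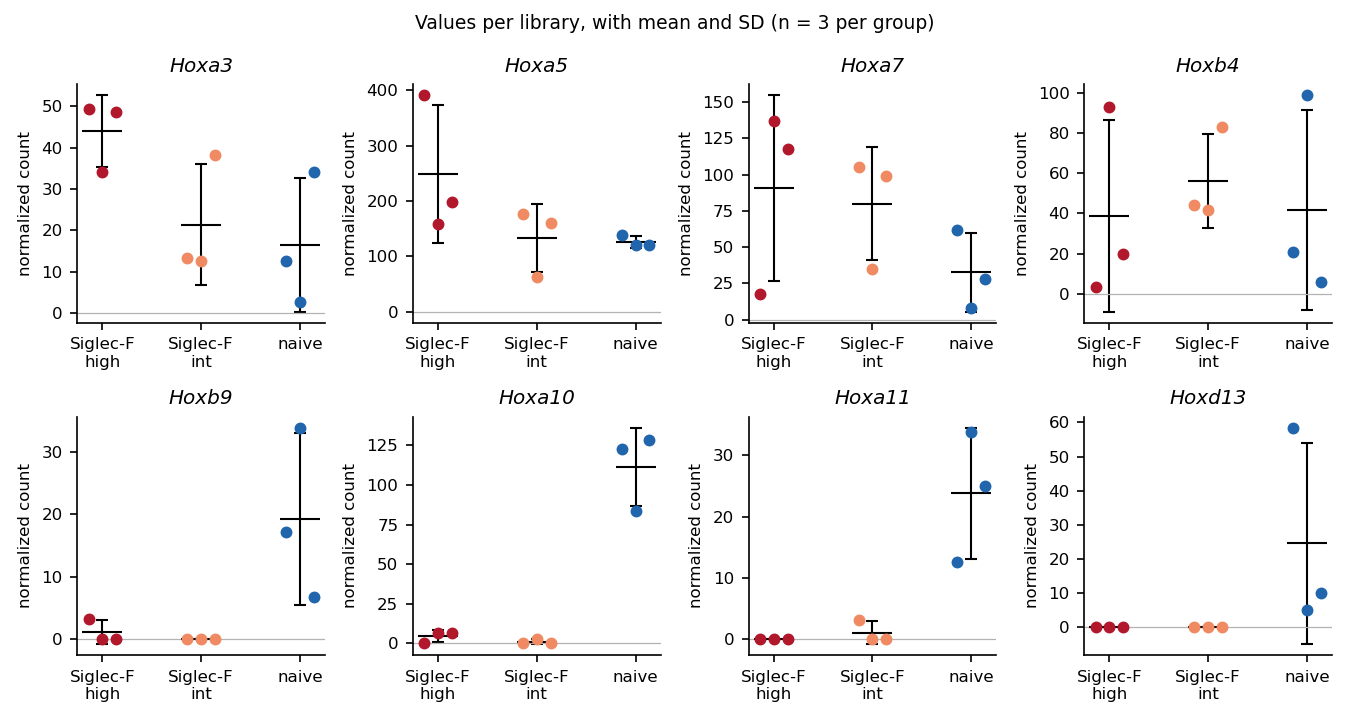
Normalized counts of 8 Hox genes in each library (points) with the mean and SD of the n = 3 libraries per group (lines). Hoxb9, Hoxa10, Hoxa11 and Hoxd13 lie at or near 0 in the Siglec-F high and int libraries, while Hoxa3, Hoxa5, Hoxa7 and Hoxb4 have values above 0 in all 9 libraries.

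Among the central genes, Hoxa5, required for the formation of the lung and trachea, had reads in every library. It had 390.5, 159 and 198 in the Siglec-F high libraries, 177, 63.6 and 160.4 in the Siglec-F int libraries and 139, 119.8 and 121 in the naive libraries. Each Siglec-F high library was above each naive library and the Siglec-F int libraries lay on both sides. The fold change of 0.86 ± 0.47 for Siglec-F high (adjusted p = 0.172) and -0.05 ± 0.47 for Siglec-F int (adjusted p = 0.949) did not pass the test, and the sign of the Siglec-F int value turned with TMM factors (0.15) and with equal totals (0.21). Hoxa7, a gene of thoracic patterning, had 17.6, 137 and 118 in the Siglec-F high libraries, 105, 35.0 and 99.3 in the Siglec-F int libraries and 61.9, 7.82 and 28.4 in the naive libraries. Siglec-F high library 1 was below 2 naive libraries and the other 2 were above all 3. Its fold change was 1.40 ± 0.90 for Siglec-F high (adjusted p = 0.246) and 1.52 ± 0.90 for Siglec-F int (adjusted p = 0.249), and without Siglec-F high library 1 the Siglec-F high fold change was 2.33 and was called (adjusted p = 0.0488). The antisense transcript Hoxaas3 shares 20.4% of the exon bases of Hoxa7. Since the strand used in counting is not given in the sources used here, reads in the shared part cannot be told apart.

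Hoxb5, a regulator of lung branching in the mouse and a marker of blood stem cells, was the only called gene outside the posterior groups. It had 0, 4.18 and 2.56 in the Siglec-F high libraries, 20.4, 7.58 and 18.03 in the Siglec-F int libraries and 8.03, 15.6 and 22.6 in the naive libraries. Every Siglec-F high library was below every library of the other groups. The fold change was -2.53 ± 0.84 for Siglec-F high (adjusted p = 0.0418) and -0.01 ± 0.84 for Siglec-F int (adjusted p = 0.998). The Siglec-F high call stood close to the threshold: it was lost with TMM factors (0.0534), equal totals (0.0656), edgeR (0.107), no filter (0.118) and a fit of only those groups (0.105). It was also lost without any 1 of 8 of the 9 libraries (adjusted p from 0.0528 to 0.120), Siglec-F high library 2 being the exception.

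The other tested central genes did not pass the test in either comparison. Hoxb4, known for expanding blood stem cells when raised, had 3.29, 93.1 and 19.6 in the Siglec-F high libraries, 44.0, 41.7 and 83.2 in the Siglec-F int libraries and 20.6, 99.0 and 5.85 in the naive libraries. It spread widely within the Siglec-F high and naive groups and overlapped in every comparison, with fold changes of -0.28 ± 1.15 (adjusted p = 0.869) for Siglec-F high and 1.15 ± 1.15 (adjusted p = 0.498) for Siglec-F int. Hoxa4 had 35.1, 4.77 and 5.12 in the Siglec-F high libraries, 5.37, 0.42 and 3.8 in the Siglec-F int libraries and 0, 23.5 and 0.84 in the naive libraries, with fold changes of 1.61 ± 1.29 and -0.02 ± 1.29 for Siglec-F high and int. Hoxb6 had 2.19, 7.16 and 5.97 in the Siglec-F high libraries, 8.59, 0.84 and 8.54 in the Siglec-F int libraries and 11.5, 10.4 and 7.52 in the naive libraries. Its Siglec-F high values all lay below the naive ones, with a fold change of -0.91 ± 0.85 (adjusted p = 0.422), and the Siglec-F int value was -0.95 ± 0.85 (adjusted p = 0.448). The 6 tested central genes had a median log2 fold change of 0.29 between Siglec-F high and naive and -0.01 between Siglec-F int and naive.

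Of the anterior genes 5 were tested and none passed. Hoxa3, needed for the thymus and parathyroid, had 49.4, 34.0 and 48.6 in the Siglec-F high libraries, 13.4, 12.6 and 38.3 in the Siglec-F int libraries and 12.6, 2.61 and 34.3 in the naive libraries. The highest naive library just passed the lowest Siglec-F high library. The fold change was 1.89 ± 0.82 for Siglec-F high (adjusted p = 0.100) and 0.72 ± 0.82 for Siglec-F int (adjusted p = 0.559), and without naive library 3 the Siglec-F high fold change was 2.66 and was called (adjusted p = 0.0426). Hoxb2, a gene of the hindbrain and facial nerve, had 0, 8.35 and 0 in the Siglec-F high libraries, 5.90, 4.21 and 12.7 in the Siglec-F int libraries and 10.3, 18.2 and 8.35 in the naive libraries. Its fold change was -2.59 ± 0.99 for Siglec-F high (adjusted p = 0.0675) and -0.68 ± 0.99 for Siglec-F int (adjusted p = 0.648), and without Siglec-F high library 2 the Siglec-F high fold change was -3.66 and was called (adjusted p = 0.0122). Hoxb3 had 31.8, 25.7 and 15.4 in the Siglec-F high libraries, 9.13, 8.85 and 15.8 in the Siglec-F int libraries and 52.8, 0 and 22.6 in the naive libraries, a fold change of 1.17 ± 1.22 and 0.14 ± 1.22 for Siglec-F high and int. Of the exon bases of Hoxb3 52.9%, and of those of Hoxb2 27.3%, are shared with the antisense transcript Hoxb3os. Hoxa2, which patterns the second pharyngeal arch, had 23.0, 5.97 and 0 in the Siglec-F high libraries, 4.29, 14.3 and 0.63 in the Siglec-F int libraries and 8.03, 20.8 and 6.68 in the naive libraries. The groups overlapped, and its fold changes were -1.06 ± 1.22 (adjusted p = 0.518) for Siglec-F high and -1.17 ± 1.22 (adjusted p = 0.518) for Siglec-F int.

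The remaining 23 Hox genes were below the filter, 8 of them with no read in any library, 9 with 1 to 9 reads and 6 with 10 to 33. Cluster C as a whole was at this level: its 9 genes summed to 20.8, 0 and 13.6 in the Siglec-F high libraries, 3.76, 0 and 8.23 in the Siglec-F int libraries and 0, 2.61 and 4.18 in the naive libraries. Hoxc6, active in the thorax, had 17 reads in the Siglec-F high libraries, 4 in the Siglec-F int libraries and 0 in the naive libraries. Hoxd8 had 0, 5 and 22 reads in the Siglec-F high, Siglec-F int and naive libraries, and Hoxb8 had 0, 0 and 5. These read counts are not scaled to depth, and each Siglec-F int library was deeper than every library of the other groups. In cluster sums, the A cluster averaged 415 ± 87.4 in the Siglec-F high libraries, 253 ± 102 in the Siglec-F int libraries and 346 ± 29.1 in the naive libraries (SD, n = 3 each), and it held most of the Hox signal in every library. The B cluster averaged 77.2 ± 55.3, 97.9 ± 38.4 and 132 ± 55.9 in the Siglec-F high, Siglec-F int and naive libraries, with overlap between all groups. Between 13 and 22 Hox genes had at least 1 read in a library, the most in the deepest, Siglec-F int library 3.

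**Figure D4:**
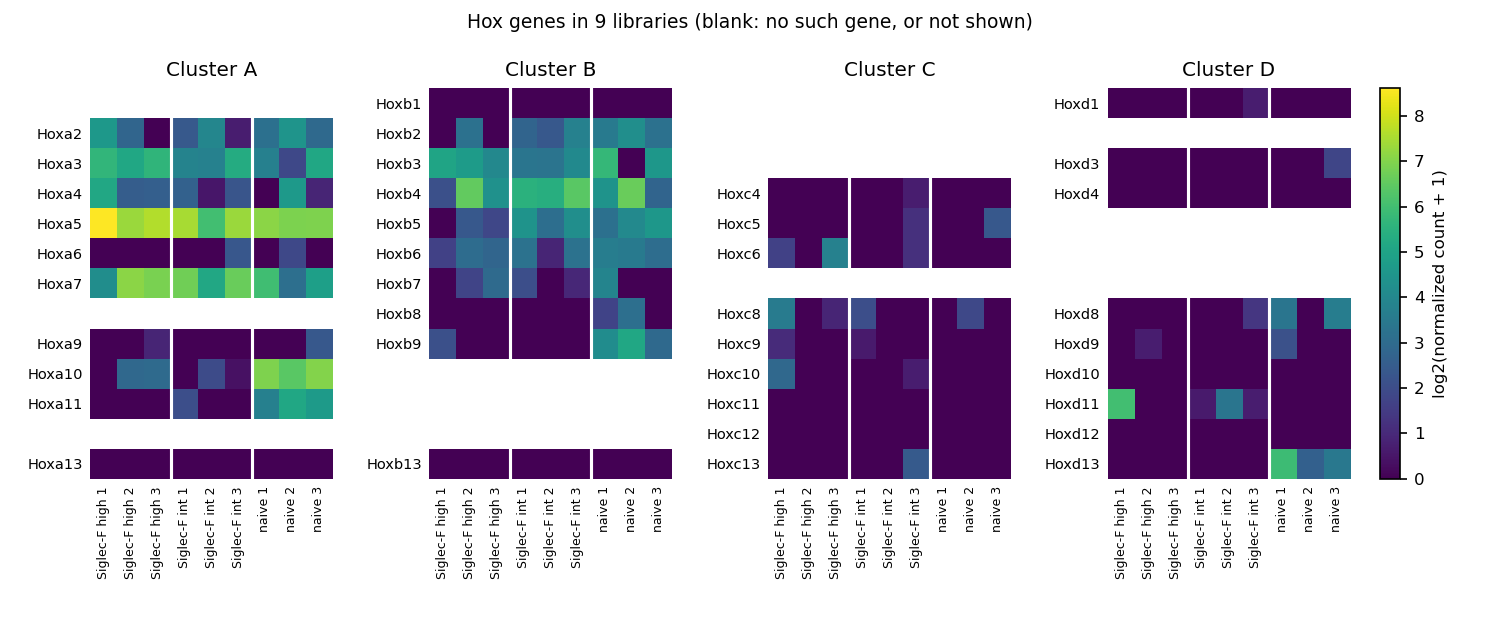
Colour shows log2(normalized count + 1) of 38 Hox genes (running down, in paralogue order within each cluster) in each of the 9 libraries (running across, Siglec-F high, Siglec-F int and naive from left to right, divided by white lines). Hoxa5 is bright in all 9 libraries, and in cluster C no value passes 12.8 before the log. The lines of Hoxa10 and, at lower values, Hoxa11 are brighter in the naive libraries than in the others.

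The Siglec-F high and Siglec-F int groups were set against each other directly, which asks whether the amount of Siglec-F on the sorted cells went with a different Hox set. No Hox gene of the 16 was called, nor was any of the 13642 genes by limma (0%) or edgeR (0%), and DESeq2 called 6 genes (0.0440%), none of them a Hox gene. At an unadjusted p below 0.05 limma gave 591 genes (4.33%), of which 1 was a Hox gene, Hoxb5. Hoxb5 was also the only Hox gene whose groups did not overlap, lower in Siglec-F high (5.75% of all genes), with a fold change of -2.52 ± 0.84 (adjusted p = 0.797). Hoxa5 differed by 0.92 ± 0.47 (adjusted p = 0.797) and Hoxa10 by 1.17 ± 0.94 (adjusted p = 0.798).

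Most transcripts that run between or against the Hox genes were too low to test, and 6 of 46 non-coding transcripts of the clusters passed the filter. Of these, 2 fell in both comparisons, where 16.6% of all genes were called lower for Siglec-F high and 10.3% for Siglec-F int. Both averaged under 5 in Siglec-F high and in Siglec-F int and passed the filter through the naive group, so they could enter the test only by differing. Hoxa11os, transcribed on the strand opposite to Hoxa11 at chr6:52244393-52249799, had no reads in the Siglec-F high or Siglec-F int libraries and values of 9.17, 31.3 and 25.1 in the naive libraries. It fell by 4.35 ± 0.85 in both comparisons (adjusted p = 0.00507 for Siglec-F high and 0.00609 for Siglec-F int), and the levels were at least 25.5-fold lower in Siglec-F high and at least 50.3-fold lower in Siglec-F int. It shares 35.0% of the exon bases of Hoxa11, so reads in the shared part cannot be told apart without the strand. The falls of Hoxa11 and Hoxa11os therefore cannot be taken as separate results. Hoxd3os1, at chr2:74703248-74716130 in the D cluster, had 0 in each Siglec-F high library, 0.54, 0 and 0 in the Siglec-F int libraries and 49.3, 33.9 and 24.2 in the naive libraries. Its fold change was -5.14 ± 0.79 for Siglec-F high (adjusted p = 0.00158) and -4.94 ± 0.79 for Siglec-F int (adjusted p = 0.00237), and the read ratio of Siglec-F int to naive was 0.00390 (9.76e-05 to 0.0223) from 1 read. The coding genes it overlaps, Hoxd3 and Hoxd4, had 3 reads and 0 reads in all. The coding gene Gm28230 shares 53.09% of the exon bases of Hoxd3 and 39.15% of those of Hoxd4 on the same strand. How shared reads were assigned is not given in the sources used here, so these low counts do not show that both genes were silent. Hotairm1, a retinoic acid responsive transcript of the A cluster, had 31, 35 and 29 reads in the Siglec-F high, Siglec-F int and naive libraries and was not called, nor were Gm27477, Gm15050 and Hoxaas3.

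Hox proteins bind DNA together with homeodomain cofactors of the Pbx, Meis and Pknox families. Of the 9 cofactor genes, all tested, 3 were called between Siglec-F high and naive (31.3% of all genes) and 1 between Siglec-F int and naive (22.3% of all genes). Those that fell were Pbx4 and Pknox1, in Siglec-F high. Pbx4 fell by 2.75 ± 0.94 (adjusted p = 0.0470) and Pknox1 by 1.33 ± 0.45 (adjusted p = 0.0458) in Siglec-F high, and in Siglec-F int they had -2.12 ± 0.94 (adjusted p = 0.130) and -1.25 ± 0.45 (adjusted p = 0.0717). Both of these falls were lost with TMM factors, with equal totals and with edgeR. The median of the list was -0.56 for Siglec-F high and -0.02 for Siglec-F int.

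The Polycomb proteins keep Hox genes silent, and the Trithorax proteins keep them active. Of 30 Polycomb genes 5 rose and 2 fell between Siglec-F high and naive, and 2 rose and 1 fell between Siglec-F int and naive (medians 0.06 and 0.17). Over all genes 14.7% rose and 16.6% fell for Siglec-F high, and 12.0% rose and 10.3% fell for Siglec-F int, so the share of Polycomb genes called was below that of all genes in both comparisons. The rises in Siglec-F high included Pcgf3 (1.88 ± 0.43, adjusted p = 0.00969), Rybp (1.14 ± 0.28, adjusted p = 0.0131) and Bmi1 (1.72 ± 0.46, adjusted p = 0.0185), all parts of Polycomb repressive complexes that mark histone H2A. Cbx8, which reads the Polycomb histone mark, had 1.1, 65.0 and 41.8 in the Siglec-F high libraries, 51.5, 91.0 and 121 in the Siglec-F int libraries and 289, 310.0 and 161 in the naive libraries, and it fell by 3.76 ± 1.05 in Siglec-F high (adjusted p = 0.0225). Pcgf1 fell by 1.38 ± 0.43 in Siglec-F high (adjusted p = 0.0329) and by 1.35 ± 0.43 in Siglec-F int (adjusted p = 0.0458). Of 15 Trithorax and related genes 4 rose and 1 fell in Siglec-F high, and 3 rose and 2 fell in Siglec-F int (medians -0.09 and 0.18). These counts of 5 of 15 stand beside 31.3% of all genes called for Siglec-F high and 22.3% for Siglec-F int. Psip1, a chromatin tether of the Kmt2a complex, rose by 2.25 ± 0.47 in Siglec-F high (adjusted p = 0.00709) and by 1.72 ± 0.47 in Siglec-F int (adjusted p = 0.0264), and the histone methyltransferase gene Ash1l rose by 1.84 ± 0.43 (adjusted p = 0.0113) and 1.71 ± 0.43 (adjusted p = 0.0188). Kmt2c, a methyltransferase of enhancers, rose by 2.33 ± 0.64 (adjusted p = 0.0203) and 2.08 ± 0.64 (adjusted p = 0.0390). Ash2l, a subunit of Kmt2 complexes, fell in Siglec-F high (-1.22 ± 0.38, adjusted p = 0.0343) and had -0.77 ± 0.38 in Siglec-F int (adjusted p = 0.172). Rbbp5 and Dpy30, also subunits, fell in Siglec-F int (-1.35 ± 0.40 and -1.15 ± 0.35, adjusted p = 0.0359 and 0.0386) and had -0.67 and -0.70 in Siglec-F high (adjusted p = 0.213 and 0.142). With TMM factors, equal totals or edgeR 0 Trithorax genes were called lower in either comparison. The counts of both lists moved with single libraries: without Siglec-F int library 1 or 3, 0 Polycomb and 0 Trithorax genes were called between Siglec-F int and naive, and without naive library 1 the counts were 1 and 0. Without Siglec-F high library 1 they were 11 and 7.

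Retinoic acid switches on Hox genes during development, first the anterior ones. Of 15 tested genes of its uptake, synthesis, breakdown and receptors, 5 rose and 1 fell between Siglec-F high and naive, and 4 rose and 1 fell between Siglec-F int and naive (medians 0.17 and 0.04). Over all genes 14.7% rose and 16.6% fell for Siglec-F high, and 12.0% rose and 10.3% fell for Siglec-F int. Stra6 averaged under 5 in the naive group and passed the filter through the others. Crabp2, the carrier of retinoic acid to its receptor, had 193, 1323 and 1177 in the Siglec-F high libraries, 792, 458 and 846 in the Siglec-F int libraries and 25.2, 62.5 and 25.1 in the naive libraries. It rose by 4.26 ± 0.68 in both comparisons (adjusted p = 0.00187 for Siglec-F high and 0.00237 for Siglec-F int). Rdh10, which makes retinal from retinol, rose by 2.68 ± 0.41 (adjusted p = 0.00149) and 2.20 ± 0.41 (adjusted p = 0.00454) in Siglec-F high and int, and Stra6, the retinol uptake receptor, by 4.19 ± 0.83 (adjusted p = 0.00537) and 4.61 ± 0.83 (adjusted p = 0.00413). Rxrb, a partner of the retinoic acid receptors, fell by 2.47 ± 0.63 in Siglec-F high (adjusted p = 0.0153) and had -1.20 ± 0.63 in Siglec-F int (adjusted p = 0.194). Cyp26b1, which degrades retinoic acid, had 79.0, 60.9 and 29.0 in the Siglec-F high libraries, 33.3, 10.1 and 40.5 in the Siglec-F int libraries and 256, 78.2 and 236 in the naive libraries, with -1.67 ± 0.66 in Siglec-F high (adjusted p = 0.0751), and it fell by 2.75 ± 0.66 in Siglec-F int (adjusted p = 0.0151).

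Other transcription factors that mark regions of the body moved in both directions. Of 48 listed, 25 were tested, and 9 rose and 6 fell between Siglec-F high and naive, and 8 rose and 6 fell between Siglec-F int and naive, with medians of 1.28 and 1.47. Of all genes 31.3% were called for Siglec-F high and 22.3% for Siglec-F int. Some of the 25, such as Lmx1b, averaged under 5 in both Siglec-F high and int, and 10, Foxc2 and Msx2 among them, averaged under 5 in naive. Such genes passed the filter through the other libraries and could enter the test only by differing, so the counts and medians of this list carry no weight. Foxc2, of the paraxial mesoderm and lymph vessels, had 134, 94.3 and 174 in the Siglec-F high libraries, 107, 34.1 and 117 in the Siglec-F int libraries and 2.29, 2.61 and 0.84 in the naive libraries. It rose by 5.55 ± 0.61 in Siglec-F high (adjusted p = 0.000348) and by 4.77 ± 0.61 in Siglec-F int (adjusted p = 0.000910). Msx2, of the skull and limb buds, was at 0 in the naive libraries and was at least 34.1-fold higher in Siglec-F high and at least 19.6-fold higher in Siglec-F int. Among those that fell, Lmx1b, which sets the back side of the limb, had 0 in each Siglec-F high library, 1.07, 0.42 and 0 in the Siglec-F int libraries and 116, 41.7 and 93.6 in the naive libraries, and was at least 117-fold lower in Siglec-F high. Pax3, a gene of the neural crest and of pigment cell precursors, had 89.9, 128 and 186 in the Siglec-F high libraries, 142, 51.0 and 145 in the Siglec-F int libraries and 494, 503 and 546 in the naive libraries, and it fell by 1.99 ± 0.44 (adjusted p = 0.00908) and 2.33 ± 0.44 (adjusted p = 0.00535) in Siglec-F high and int. Tbx2, a T-box gene also known from pigment cells, fell by 3.71 ± 0.43 (adjusted p = 0.000443) and 3.44 ± 0.43 (adjusted p = 0.000859).

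Of 8 marker lists of other cell types, those of pigment cells, of fibroblasts and mesenchyme, and of macrophages and monocytes had the most calls against naive. All 10 pigment cell markers fell in both comparisons with naive, with median log2 fold changes of -7.55 for Siglec-F high and -6.95 for Siglec-F int. Of the 12 markers of fibroblasts and mesenchyme 8 rose between Siglec-F high and naive and 7 between Siglec-F int and naive (medians 2.56 and 1.98), and of the 8 macrophage and monocyte markers 4 rose in each (medians 0.95 and 2.26). Of the tested markers of endothelium (6), lymphocytes (5), mammary and squamous epithelium (3) and eosinophils (6) none was called in either comparison. Of 8 lung epithelium markers 1 fell in Siglec-F int, and of 4 neutrophil markers 1 fell in each comparison. The part of these cell types in the Hox values was not tested. Across all genes, calls between Siglec-F high and naive were 46.9% higher and with equal totals 57.0% higher, and between Siglec-F int and naive 53.8% higher, with TMM factors 65.1% and with equal totals 69.1%. Hoxa10, Hoxa11, Hoxb9 and Hoxd13 were lower than in naive under each of these scalings in both comparisons.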

How the data were processed

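Per the labels, RNA of sorted lung cells (over 98% pure by the labels) was made into libraries with Cell-seq protocols. TopHat2 2.1.0, HTSeq, DESeq2 1.10.0 and the build GRCm38 are named, with no parameters, in the submitters' processing notes. The values the authors deposited are a signal: gene counts divided by 1 factor per library, as the recovered whole reads show. The strand of counting and any use of molecular identifiers are not given in the sources used here. Of 54670 entries, 63 whose names had turned into dates (0.219% of the total) and 246 repeats (116 exact, 130 under another's name) were left out, which left 54361 genes. Whole reads were recovered, with every value of up to 2000 reads within 0.05 read of a whole number, plus an allowance for the rounding of the deposited values.

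Genes with a mean of at least 5 were tested with limma 3.58.1 (R 4.3.3) on log2(value + 1), with a variance trend, in 1 model of 9 libraries and 3 groups, two-sided, at a Benjamini-Hochberg adjusted p below 0.05. edgeR 4.0.16 (quasi-likelihood) and DESeq2 1.42.0 on the recovered reads, other pseudocounts (0.5 and 4), filters, scalings, a replicate block and single-library removals were alternatives. Removing library 1 of Siglec-F high together with library 2 of Siglec-F int was an alternative chosen after seeing the data. Replicate numbers were not taken as pairs in the main model, which treats the Siglec-F high and Siglec-F int libraries as independent. Read ratios have exact conditional 95% intervals (scipy 1.17.1). Plots used matplotlib 3.10.9. The limma procedure was tested on simulated data. Every tested Hox gene is named except 1, which like some genes of the other lists is not reported here, and from each other list up to 3 called genes per direction with the smallest adjusted p, of which some are described. The Hox genes and all lists were chosen with earlier results of these data known.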

Additional observations from a re-analysis of the deposited data

How the results depend on the processing

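Of the 30 fold changes of the Hox genes described against naive, 21 kept their direction under every alternative that tested the gene, 8 reversed under at least 1, and 1 (Hoxd11 in Siglec-F high) was 0 without Siglec-F high library 1. Of the 9 calls, 3 held under every alternative that tested the gene (Hoxa10 in both comparisons, Hoxa11 in Siglec-F high), 6 were lost under at least 1 and 0 reversed. The filter at a mean of 20 left Hoxa11 untested. The cause of these shifts was not tested, except that a filter at a mean of 20 left fewer genes to test. Depth limits the low genes: 3 reads in naive library 2 are worth a value of 7.82.

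The number of Hox genes called between Siglec-F high and naive was 3 with edgeR, 3 with only the groups compared and 1 with a mean of at least 20, when 6 were tested. Between Siglec-F int and naive it was 1 with a mean of at least 20. Of all 10631 genes tested with that filter, 4025 were called for Siglec-F high and 2905 for Siglec-F int. That filter left 0 non-coding transcripts called in either comparison. Over all genes, 2509 were called between Siglec-F high and naive with only the groups compared. For Siglec-F int against naive 4808 were called with only the groups compared and 4623 with library 1 of Siglec-F high and library 2 of Siglec-F int left out together. Between Siglec-F high and Siglec-F int DESeq2 called 6. Cofactor calls between Siglec-F high and naive were 1 with TMM factors, edgeR, equal totals, no filter, only the groups compared, or those libraries left out. For Siglec-F int they were 3 with DESeq2 or only the groups compared, and 2 with no variance trend or those libraries left out. Polycomb calls between Siglec-F high and naive were 4 with no filter and 2 with only the groups compared. For Siglec-F int they were 5 with DESeq2 or equal totals, 9 with those libraries left out, 1 with no filter and 8 with only the groups compared. Trithorax calls between Siglec-F high and naive were 2 with those libraries left out or only the groups compared. For Siglec-F int they were 3 with TMM factors, edgeR or equal totals, and 2 with no filter or no variance trend.

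Between Siglec-F int and naive the sign turned for Hoxa4 with TMM factors (0.11), equal totals (0.20), a pseudocount of 0.5 (0.18) and those libraries left out (0.64). It turned for Hoxa5 with DESeq2 (0.17), TMM factors (0.15), edgeR (0.28), equal totals (0.21), quantile normalization (0.017) and those libraries left out (0.41). Hoxb3 turned with DESeq2 (-1.10), edgeR (-1.01), a pseudocount of 4 (-0.28) and quantile normalization (-0.36). Hoxb5 turned with DESeq2 (0.077), TMM factors (0.18), edgeR (0.18), equal totals (0.25) and those libraries left out (0.41). Hoxb4 between Siglec-F high and naive turned with DESeq2 (0.020), edgeR (0.22), quantile normalization (0.10) and those libraries left out (0.84).

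Leaving out 1 library at a time gave 2 to 5 Hox genes called between Siglec-F high and naive, the fewest without naive library 1, and 1 to 4 between Siglec-F int and naive, the fewest without Siglec-F int library 3. All genes called ranged from 2770 to 5101 and from 1401 to 5167 for Siglec-F high and int. The ranges were 1 to 3 and 1 to 4 for cofactors, 3 to 11 and 0 to 11 for Polycomb, 2 to 5 and 0 to 7 for Trithorax, and 8 to 16 for other regional factors in Siglec-F int. Fold changes that turned sign ranged from -2.12 to 0.17 (Hoxa2), -0.55 to 2.32 (Hoxb3) and -1.39 to 0.84 (Hoxb4) in Siglec-F high. In Siglec-F int they ranged from -0.15 to 1.495 (Hoxa3), -0.93 to 1.37 (Hoxa4), -0.32 to 0.41 (Hoxa5), -1.58 to 1.29 (Hoxb3) and -0.38 to 0.41 (Hoxb5).

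Between Siglec-F high and Siglec-F int, deviations from the group mean correlated at 0.12, 0.14 and 0.07 for libraries of the same number. For different numbers they correlated at -0.16 to -0.01. These values depend on each other, since each deviation is taken from a group mean. With naive libraries of the same number the correlations were -0.03 to 0.06. Whether Siglec-F high and int libraries of the same number shared mice was not tested. With the replicate block 4 Hox genes were called in each comparison with naive and 0 between Siglec-F high and Siglec-F int. Hoxb5 in Siglec-F high against naive was lost (adjusted p = 0.0517). Over all genes the block gave 4317 and 3091 calls for Siglec-F high and int against naive. The median of all genes between Siglec-F high and naive, -0.11, shifted by 0.16 with TMM factors, 0.13 with equal totals, 0.20 with edgeR, 0.15 with DESeq2 and 0.12 with quantile normalization. Between Siglec-F int and naive it was -0.02 and shifted by 0.18 with TMM factors and 0.25 with equal totals.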
